A study of Mus musculus with 4 samples.

Results

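The genes described here write, keep, bind or remove DNA methylation. They are the DNA methyltransferase genes Dnmt1, Dnmt3a and Dnmt3b with the cofactor gene Dnmt3l, the maintenance gene Uhrf1, the dioxygenase genes Tet1, Tet2 and Tet3, the thymine DNA glycosylase gene Tdg and the NuRD subunit gene Mbd3. They were taken by gene symbol, and all 10 were found among the 37311 gene identifiers of the count files. Their level in ribosome protected fragments (RPF, the stretches of mRNA covered by a ribosome) was set against their level in total RNA.

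All 4 libraries came from J1 mouse embryonic stem cells (strain 129S4/SvJae) with eIF4A3 knocked down, so every group carries the same knockdown. eIF4A3 is the RNA helicase at the core of the exon junction complex. The cells grew without feeders on gelatin in serum and LIF, and received shRNA viruses (sheIF4a3-2 and sheIF4a3-3), puromycin at 1 μg/mL for 3 days and, on day 4.5, cycloheximide at 0.1 mg/mL for 1 min to hold ribosomes on mRNA. There were 2 RPF and 2 total RNA libraries, called biological replicates in the labels. The sources used here do not tell which of the hairpins went into which replicate, nor whether libraries of one replicate number share a lysate. No unperturbed cells were analysed here, so no value below measures an effect of eIF4A3.

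In mammals DNMT3A and DNMT3B place methyl groups on unmethylated CpG sites, and DNMT3L, which has no catalytic activity of its own, stimulates them. DNMT1 copies the pattern to the new strand after replication, where UHRF1 recruits it by binding hemimethylated DNA. TET enzymes oxidise 5-methylcytosine, TDG excises the further oxidised bases, and base excision repair then restores cytosine. MBD3 belongs to the NuRD remodelling and deacetylase complex and, unlike MBD2, binds methylated CpG poorly. Serum-grown mouse embryonic stem cells are known for high levels of the de novo enzymes and of Tet1 and Tet2.

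The bases around the annotated start codon are shown because ribosomes choose a start by its context. Each line gives, from the principal GENCODE M21 transcript (sense strand, 5′ to 3′, DNA letters), the 9 bases before the start, the start codon in capitals and 1 base after it.
Dnmt1: acctgcaagATGc
Dnmt3a: tgcccagcaATGc
Dnmt3b: caggaaacaATGa
Dnmt3l: attacatcaATGg
Uhrf1: atcggcatcATGt
Tet1: tctgcagccATGt
Tet2: gcaagcctgATGg
Tet3: ggcggcatcATGa
Tdg: ggcgccgccATGg
Mbd3: cggggcgcaATGg
The base at position -3 (3 bases before the start) is A or G in 8 of the 10 genes, against 82.2% of 20009 coding genes with an annotated start. A G follows the start in 4 of the 10 genes, against 49.8%. At position -3 Dnmt3l has T and Tet2 has C. Dnmt3l also has 4 ATG triplets upstream of its start, and Tet2 has 7. At least 1 upstream ATG stands in 7 of the 10 genes, against 51.1% of coding genes, and none stands in Dnmt3b, Uhrf1 or Mbd3. An upstream frame that also closes before the start stands in 6 of the 10, against 43.6%, and Dnmt1 has none. The stretch before the start runs from 157 bases (Tdg) to 532 bases (Tet3), beside a median of 160 bases for coding genes. Its length was not allowed for.

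Gene counts ran from 7615277 to 9434987 over the 4 libraries, and a gene with 0 counts could still have had 3, or 0.294 to 0.437 CPM (counts scaled to library size and TMM factors). Such limits cover counting error only. Eif4a3 had 1640 and 1325 counts in the RPF libraries, against 1229 and 975 counts in the total RNA libraries. Of the 28-base stretches in its coding part, 54.4% also occur in another gene, so these counts are uncertain. With no library of cells without the knockdown beside them, the counts do not check the labels. The 8 embryonic stem cell markers had a median of 543 CPM in RPF and 401 CPM in total RNA. Summed over 7 fibroblast markers the level was 12.9 and 11.5 CPM in RPF, against 5.58 and 5.16 CPM in total RNA, with Dcn at 0 counts in all 4 libraries. The 6 trophectoderm markers summed to 55.3 and 49.6 CPM in RPF, against 34.3 and 40.3 CPM in total RNA, and most of this was Tfap2c. The 6 primitive endoderm markers summed to 52.9 and 40.1 CPM in RPF, against 34.5 and 27.9 CPM in total RNA. The neuroectoderm and mesoderm markers, of which 6 of 7 had an identifier, summed to 35.6 and 39.2 CPM in RPF, against 24.3 and 24.3 CPM in total RNA. The part of such cells in the values below was not tested.

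Dnmt3l and Dnmt1 had more footprints per total RNA than the average gene, and Tet1, Tet2 and Tet3 had fewer. The log2 ratio of a gene's RPF level over its total RNA level, below simply the ratio, passed an adjusted p of 0.05 as higher in 2 of the 10 genes and as lower in 3, while 5 did not pass. Over all 13809 genes tested, 20.5% were higher and 21.2% lower, so these counts are close to the background. The median ratio of the 10 genes was -0.01, beside -0.02 for all genes. All 10 passed the filter on low counts. When libraries were scaled by their size alone, the overall median became -0.46, calls split into 1223 higher and 4961 lower instead of 2835 and 2930 (19.8% of calls higher against 49.2%), and 1 member was higher and 5 lower. Leaving out 1 library at a time gave ratios of 0.54 to 1.00 for Dnmt1, 0.39 to 1.18 for Uhrf1 and 0.24 to 0.91 for Dnmt3b. Whether these genes were called changed with the library left out.

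**Figure D1:**
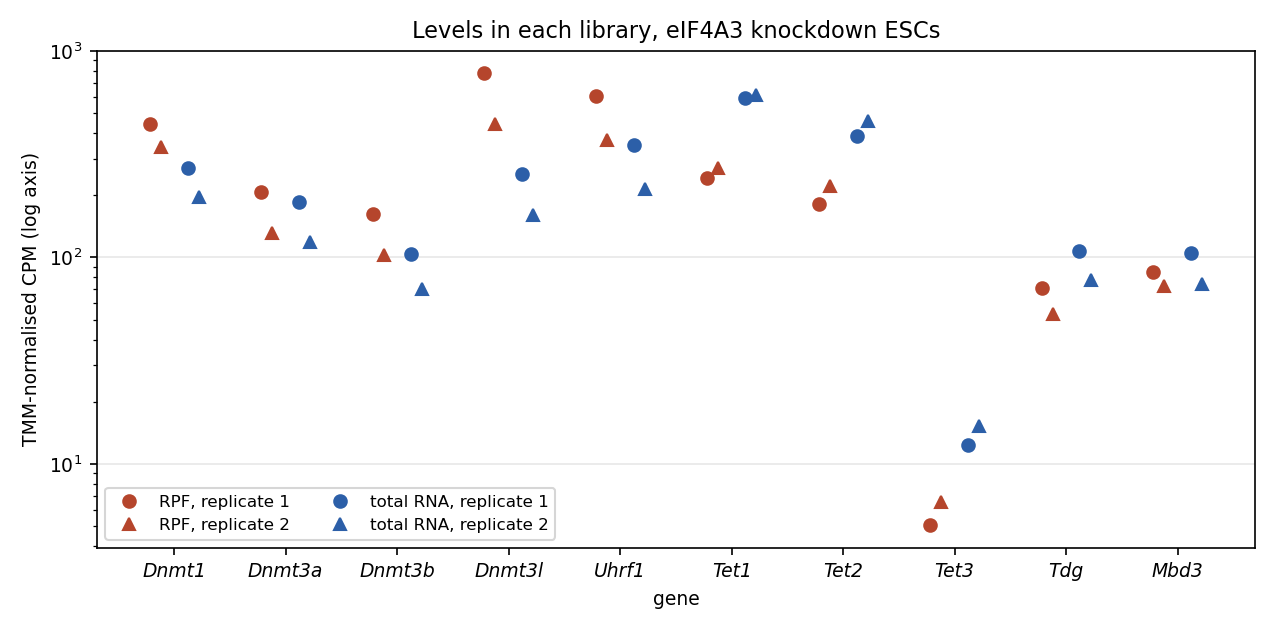
TMM-normalised CPM (log axis) of the 10 genes in each of the 4 libraries, with RPF in red on the left and total RNA in blue on the right of each gene. Dnmt3l is higher in RPF (779.5 and 442 CPM) than in total RNA (255 and 161 CPM), and Tet1 is lower (242 and 271 CPM, against 592 and 615 CPM).

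Dnmt3l (ENSMUSG00000000730.7, chromosome 10), the catalytically inactive partner of the de novo enzymes, had the highest ratio of the 10. Its level was 779.5 and 442 CPM in RPF replicates 1 and 2, against 255 and 161 CPM in total RNA replicates 1 and 2. Both RPF libraries lay above both total RNA libraries, and replicate 1 lay above replicate 2 in each fraction. The ratio was 1.56 ± 0.32 (SE, n = 2 libraries per fraction; edgeR quasi-likelihood adjusted p = 0.00882), a 2.94-fold difference that was higher than 96.5% of all tested ratios. Over the 4 pairings of 1 RPF with 1 total RNA library it ran from 0.79 to 2.28. Both ends came from pairs of unlike replicate number, and pairs of the same number gave 1.61 (replicate 1) and 1.46 (replicate 2). Its call held in all 13 alternative settings, with an adjusted p of at most 0.0163. By log2 CPM over the 4 libraries, the named coding genes closest to Dnmt3l were Slc25a5, Hnrnpd and Hist1h4d, at Euclidean distances of 0.16, 0.40 and 0.40.

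The de novo methyltransferases that DNMT3L stimulates did not pass. Dnmt3a (ENSMUSG00000020661.9, chromosome 12) had 207 and 132 CPM in RPF, against 185 and 119 CPM in total RNA. The fractions overlapped, and the ratio was 0.16 ± 0.28 (adjusted p = 0.672, edgeR), with values from -0.28 under library size only to 0.51 without total RNA replicate 1. Dnmt3b (ENSMUSG00000027478.9, chromosome 2) had 162 and 103 CPM in RPF, against 104 and 70.7 CPM in total RNA. Its libraries overlapped by a narrow margin, and the ratio was 0.60 ± 0.26 (adjusted p = 0.106, edgeR). The ratio was 0.89 without RPF replicate 2 and 0.91 without total RNA replicate 1. Between libraries of the same replicate number it was 0.64 in replicate 1 and 0.54 in replicate 2. With replicate number as a block, described in the closing section, Dnmt3b passed (0.59). Of the 28-base stretches in its coding part, 28% also occur in another gene, most often in Dnmt3c, a close copy that had 3 and 2 counts in RPF and 1 and 4 counts in total RNA.

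Counts of 2 genes within 1 library can be compared without any scaling between libraries. For each Dnmt3a read there were 3.76 and 3.35 Dnmt3l reads in RPF, against 1.38 and 1.35 in total RNA. For each Dnmt3b read there were 4.81 and 4.3 Dnmt3l reads in RPF, against 2.45 and 2.27 in total RNA. In both pairs the replicates lay close together and the fractions did not overlap. On the log2 scale the mean difference between fractions was 1.38 for Dnmt3l over Dnmt3a and 0.95 for Dnmt3l over Dnmt3b. These values leave uncorrected how much of the exons is coding, which is 42.3% for Dnmt3l, 17% for Dnmt3a and 50.5% for Dnmt3b. After a correction for this share the RPF to total RNA ratios were 1.47 for Dnmt3l, 0.46 for Dnmt3a and 0.44 for Dnmt3b. The part of the coding share in the 2 differences was not tested. Set against Dnmt1, Dnmt3l was at 1.76 and 1.28 reads in RPF and at 0.942 and 0.818 in total RNA. The pairs with Dnmt3a and Dnmt3b were added after their values were seen. With 2 libraries against 2, an exact two-sided permutation test cannot go below 0.333, so these ratios are given without a test.

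**Figure D2:**
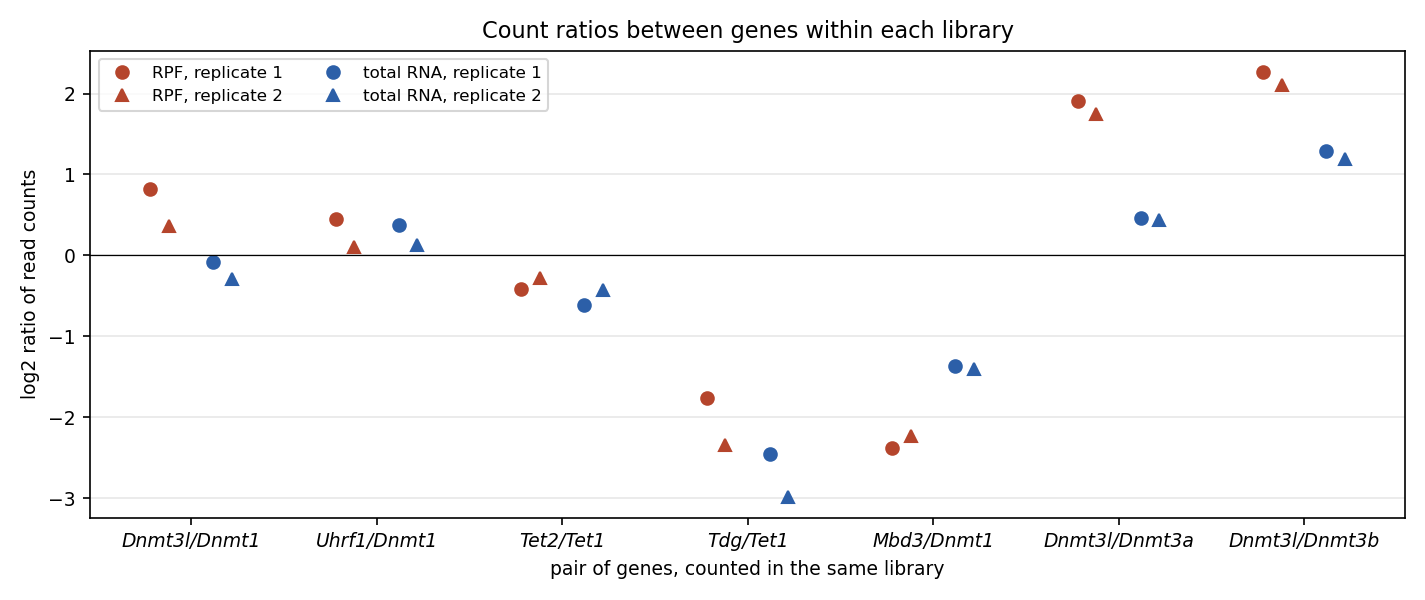
Log2 ratio of the read counts of 2 genes in the same library (y axis), for 7 pairs of genes (x axis), with RPF in red on the left and total RNA in blue on the right. The Dnmt3l/Dnmt3a points sit at 1.91 and 1.75 in RPF, above 0.46 and 0.44 in total RNA, while the Uhrf1/Dnmt1 points of the fractions overlap.

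The maintenance genes Dnmt1 and Uhrf1 had similar ratios, of which 1 passed. Dnmt1 (ENSMUSG00000004099.8, chromosome 9) had 443 and 344 CPM in RPF, against 271 and 197 CPM in total RNA. Its fractions did not overlap, and the ratio passed as higher (0.75 ± 0.21, adjusted p = 0.027, edgeR). The call was lost with library size only (0.32, adjusted p = 0.196), after correction for how much of the exons is coding (0.53, adjusted p = 0.0831) and without total RNA replicate 2 (0.54, adjusted p = 0.207).

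Uhrf1 (ENSMUSG00000001228.8, chromosome 17), which brings DNMT1 to hemimethylated sites, had 604 and 369 CPM in RPF, against 350.4 and 215.5 CPM in total RNA. The fractions did not overlap, but RPF replicate 2 stood close to total RNA replicate 1. The ratio was 0.78 ± 0.30 and did not pass (adjusted p = 0.0761, edgeR). DESeq2 called it (0.80, adjusted p = 0.0148). The ratio was 1.09 without RPF replicate 2 and 1.18 without total RNA replicate 1. Between libraries of the same replicate number it was 0.78 in each replicate. With replicate number as a block, described in the closing section, Uhrf1 passed (0.78). Within a library there were 1.36 and 1.07 Uhrf1 reads per Dnmt1 read in RPF, against 1.29 and 1.1 in total RNA, so the pair stood in overlapping proportions in both fractions. Of the 28-base stretches in the coding part of Uhrf1, 48.1% also occur in another gene, most often the processed pseudogene Gm5648, whose counts were 0 and 1 in RPF and 0 and 0 in total RNA. The part of shared sequence in the values of Uhrf1 and Dnmt3b was not tested.

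The TET genes were the only members whose ratios passed as lower. Tet1 (ENSMUSG00000047146.8, chromosome 10), the main TET gene of these cells together with Tet2, had 242 and 271 CPM in RPF, against 592 and 615 CPM in total RNA. The ratio was -1.24 ± 0.16 (adjusted p = 0.00165, edgeR), a 2.35-fold lower level in RPF. Replicates differed little, and the 4 pairings ran from -1.34 to -1.13.

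Tet2 (ENSMUSG00000040943.7, chromosome 3), which unlike TET1 and TET3 has no CXXC domain, had 182 and 223 CPM in RPF, against 386 and 456 CPM in total RNA. Its ratio was -1.06 ± 0.18 (adjusted p = 0.00401, edgeR). The calls of Tet1 and Tet2 held in all 13 alternatives, with adjusted p values of at most 0.00359 and 0.0161. Within a library there were 0.751 and 0.823 Tet2 reads per Tet1 read in RPF, against 0.652 and 0.742 in total RNA, so the fractions lay near each other without overlap.

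Tet3 (ENSMUSG00000034832.8, chromosome 6), best known as the TET enzyme of the oocyte and zygote, was low in both fractions, with 39 and 45 counts in RPF, against 126 and 147 counts in total RNA. This was 5.04 and 6.56 CPM in RPF, against 12.3 and 15.2 CPM in total RNA. The ratio was -1.25 ± 0.28 (adjusted p = 0.0118, edgeR), and the call was lost without total RNA replicate 2 (adjusted p = 0.0712). Its read count per Tet1 read was 0.0208 and 0.0242 in RPF, against 0.0208 and 0.0247 in total RNA, so Tet3 and Tet1 were in the same proportion in both fractions to within the replicate spread. The named coding genes closest to Tet3 by log2 CPM were Fpgt, Ap3s1 and Zfp605, at distances of 0.14, 0.21 and 0.23.

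Tdg (ENSMUSG00000034674.11, chromosome 10), which removes oxidised 5-methylcytosine, had 71.2 and 53.2 CPM in RPF, against 108 and 77.8 CPM in total RNA. Both RPF libraries lay below both total RNA libraries, with a ratio of -0.57 ± 0.21 that did not pass (adjusted p = 0.0644, edgeR). It passed at a mean of at least 10 CPM (-0.65, adjusted p = 0.0407, edgeR) and with library size only (-1.01, adjusted p = 0.00586, edgeR). The ratio was -0.80 without RPF replicate 1 and -0.79 without total RNA replicate 2. Between libraries of the same replicate number it was -0.59 in replicate 1 and -0.55 in replicate 2. With replicate number as a block, described in the closing section, Tdg passed as lower (-0.57). Of the 28-base stretches in the coding part of Tdg, 91.7% also occur in another gene, most often the pseudogene Tdg-ps, which had 0 counts in all 4 libraries. Reads with more than 1 alignment were 21% and 20.6% of the tallied alignments in RPF, against 16.6% and 16.5% in total RNA, and were not assigned to genes. Footprints lie in the coding part while total RNA covers all exons, of which 49.2% of the stretches are shared. The level of Tdg is therefore uncertain, and the part of this in its ratio was not tested. Tdg also overlaps Glt8d2 on the other strand over 6.83% of its exon bases, and Dnmt3l overlaps Aire over 2.24%. Whether counting used the strand is not stated in the sources used here.

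Mbd3 (ENSMUSG00000035478.8, chromosome 10) had 84.7 and 73.0 CPM in RPF, against 105 and 74.3 CPM in total RNA. The fractions overlapped, and the ratio did not pass (-0.19 ± 0.19, adjusted p = 0.468, edgeR). It passed as lower with library size only (-0.62, adjusted p = 0.0307), and it was 0.09 without total RNA replicate 1. Within a library there were 0.191 and 0.212 Mbd3 reads per Dnmt1 read in RPF, against 0.389 and 0.378 in total RNA, with no overlap between the fractions.

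**Figure D3:**
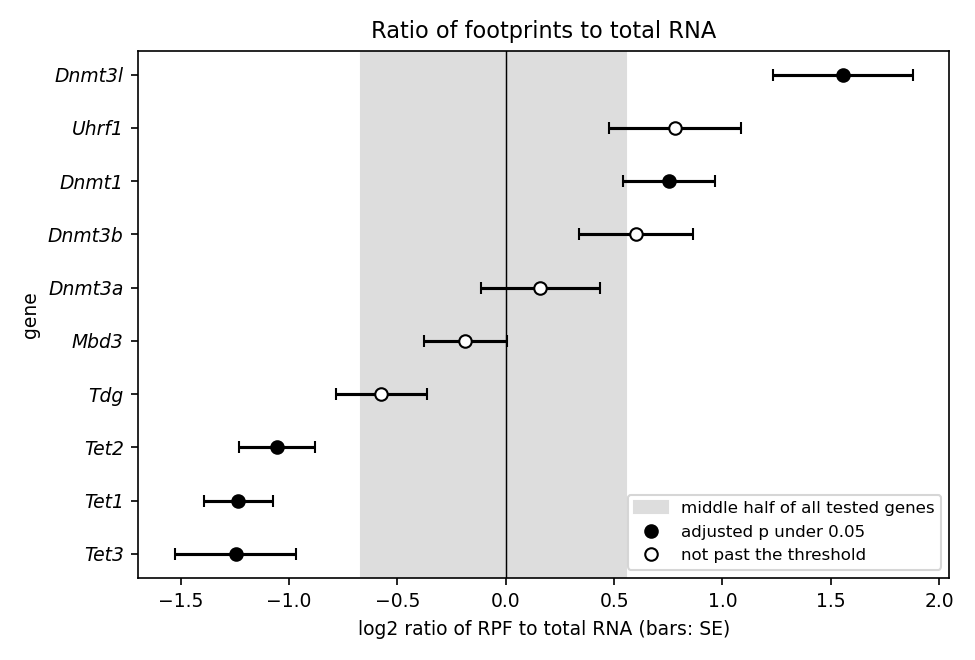
Log2 ratio, RPF over total RNA (x axis, bars show SE), for each of the 10 genes (y axis), with filled points for an adjusted p under 0.05 and a grey band for the interquartile range of all tested genes. Dnmt3l is highest at 1.56, and Tet2, Tet1 and Tet3 are lowest at -1.06, -1.24 and -1.25.

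Both RPF libraries lay above both total RNA libraries in 3 of the 10 genes (Dnmt1, Dnmt3l and Uhrf1), against 34.9% of all tested genes. Both lay below in 4 of the 10 (Tet1, Tet2, Tet3 and Tdg), against 37.9%. The ratio tended to be higher in genes with a larger coding share of their exon bases over all annotated transcripts. Spearman's rho was 0.59 over the 10 genes and 0.21 over 12655 tested coding genes. This is a description across genes, which are not independent replicates. Over all annotated transcripts Dnmt1 had the highest coding share (65.9%) and Dnmt3a the lowest (17%). Tet1, Tet2 and Tet3 stood at 40%, 34.1% and 32.6%, beside a median of 35.8% for tested coding genes. The principal transcripts alone order the genes otherwise, with coding shares of 91% for Tet3, 90.6% for Dnmt1, 69.3% for Dnmt3l and 62.5% for Tet2. The relation was not computed with these shares. After a correction for the share over all annotated transcripts the ratios of Tet1, Tet2 and Tet3 passed as lower and that of Dnmt3l as higher. The ratio of Dnmt1 no longer passed there (0.53, adjusted p = 0.0831, edgeR). Over all tested genes the median ratio was -0.18 for 6342 genes with an upstream ATG and 0.21 for 6286 genes without one. Dnmt3l, at 1.56 with 4 upstream ATG triplets, and Dnmt1, at 0.75 with 3, were above both medians, and the TET genes, with 2 to 7, were below both. Of the genes with 1 such triplet, Dnmt3a (0.16) lay between the medians and Tdg (-0.57) below both. Without an upstream ATG, Dnmt3b (0.60) and Uhrf1 (0.78) were above both medians and Mbd3 (-0.19) narrowly below both.

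Levels of different genes were compared per kb, by coding length for RPF and by exon length over all annotated transcripts for total RNA. In RPF, Dnmt3l was the most abundant at 617 and 349.9 CPM per coding kb, followed by Uhrf1 at 257 and 157 and Dnmt1 at 91.1 and 70.9. Each of Dnmt3l and Uhrf1 lay above the next gene in both libraries. Dnmt1 overlapped with Mbd3 (86.7 and 74.8), and Dnmt3a (73.1 and 46.5), Dnmt3b (62.8 and 39.8) and Tdg (56.4 and 42.1) each overlapped with the next in this order. Tdg was followed by Tet1 (39.2 and 43.8), which lay above Tet2 (31.6 and 38.7) in both libraries by a narrow margin, and Tet3 was far below at 0.927 and 1.21.

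In total RNA the order differed. Dnmt3l (85.3 and 53.8 CPM per exon kb) and Uhrf1 (82.3 and 50.6) overlapped at the top, followed by Mbd3 (53 and 37.4) and Tet1 (38.3 and 39.8). Dnmt1 was at 36.7 and 26.7 CPM per exon kb, Tet2 at 22.9 and 27.1, Tdg at 20 and 14.5, Dnmt3b at 20.4 and 13.8, Dnmt3a at 11.1 and 7.13 and Tet3 at 0.739 and 0.909. Neighbours in this order did not overlap between Tet1 and Dnmt1, Tet2 and Tdg, Dnmt3b and Dnmt3a, and Dnmt3a and Tet3, and the other neighbours did. Tet1 thus had rank 8 by RPF and rank 4 by total RNA, and Dnmt1 rank 3 by RPF and rank 5 by total RNA. Lengths over all annotated transcripts include exons these cells may not use, which lowers the per-kb level of such genes.

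Replicate 1 exceeded replicate 2 in RPF and in total RNA for 7 of the 10 genes, and the 3 TET genes were lower in replicate 1 in both. For Dnmt3l the log2 difference of replicate 1 over replicate 2 was 0.82 in RPF and 0.66 in total RNA. It was 0.71 and 0.70 for Uhrf1, 0.65 and 0.64 for Dnmt3a, and 0.66 and 0.56 for Dnmt3b, in RPF and in total RNA. Dnmt1 (0.36 and 0.46), Tdg (0.42 and 0.47) and Mbd3 (0.21 and 0.50) differed less. Tet1 (-0.16 and -0.06), Tet2 (-0.29 and -0.24) and Tet3 (-0.38 and -0.30) went the other way.

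A replicate difference of at least 0.5 in both fractions was found in 4 of the 10 genes with replicate 1 higher, against 3.62% of all tested genes, and in 0 of the 10 with replicate 1 lower, against 3.34%. This limit was set after the counts of these genes were seen, and there is 1 library per replicate and fraction, so the difference has no test. Among all tested genes 5% lay above 0.83 in RPF and above 0.59 in total RNA, and Dnmt3l, Dnmt3a and Uhrf1 passed the second of these limits. In bulk RNA, fewer cells expressing a gene and less RNA per cell cannot be told apart.

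**Figure D4:**
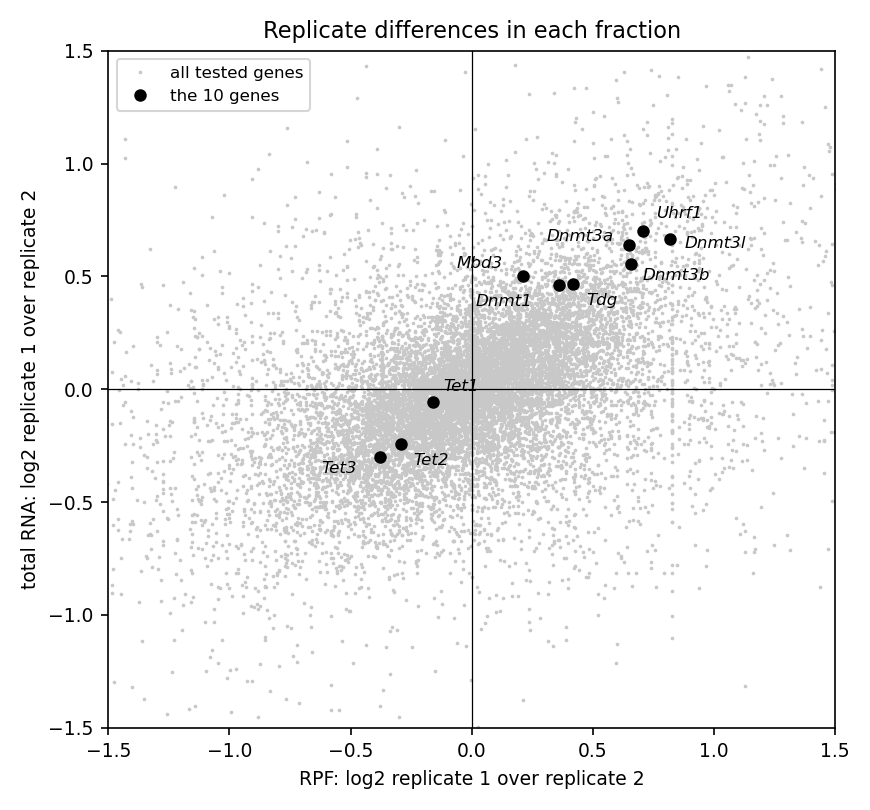
Log2 difference of replicate 1 over replicate 2 in RPF (x axis) and in total RNA (y axis), with the 10 genes in black over all tested genes in grey (241 of these lie outside the axes). Dnmt3l, Uhrf1, Dnmt3a and Dnmt3b lie at 0.56 to 0.82 on both axes, and Tet1, Tet2 and Tet3 lie below 0 on both.

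Genes that work with these enzymes were followed in 7 lists with 79 genes, of which 3 were below the count filter. Of the 76 tested, 30 were higher and 9 lower, beside 20.5% higher and 21.2% lower over all tested genes. With library size only the counts were 10 and 22, beside 1223 higher and 4961 lower over all tested genes instead of 2835 and 2930. Leaving out either total RNA library lowered both the counts of listed genes and those over all tested genes. Partners of methylation maintenance and imprint protection held 6 higher and 0 lower genes among 14, with a median of 0.49, and 3 higher and 2 lower with library size only. Lig1, the replicative DNA ligase, led those at 10 CPM or more (1.35 ± 0.25, adjusted p = 0.0059, edgeR; 415 and 282 CPM in RPF, against 162 and 111 CPM in total RNA), and the zinc finger gene Zfp445 was lowest and did not pass (-0.35 ± 0.15, adjusted p = 0.111; adjusted p = 0.0344 without RPF replicate 2).

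Proteins that bind methylated DNA or are related to these held 3 lower and 0 higher genes among 10, with a median of -0.52. The share of lower genes was not far from the 21.2% of all tested genes. There were 7 lower genes with library size only, 5 at a mean of at least 10 CPM, with coding genes only and without RPF replicate 2, and 1 without total RNA replicate 2. Mbd5, of the MBD family, was at 6.59 and 11.1 CPM in RPF, against 23.4 and 26.1 CPM in total RNA (-1.49 ± 0.28, adjusted p = 0.00641, edgeR). Mbd1 was highest and did not pass (0.42 ± 0.26, adjusted p = 0.238; adjusted p = 0.0176 without RPF replicate 1). Base excision repair and Gadd45 genes held 6 higher genes and 1 lower gene among 13, beside 20.5% and 21.2% of all tested genes. Their median was 0.57. With library size only 0 were higher and 3 lower (higher ones were 3 without total RNA replicate 1 and 2 without total RNA replicate 2). Smug1, a uracil DNA glycosylase, was the lower one, at 6.46 and 6.85 CPM in RPF, against 19.7 and 22 CPM in total RNA (-1.64 ± 0.23, adjusted p = 0.00224, edgeR). Gadd45g had the highest ratio there but did not pass (1.02 ± 0.65, adjusted p = 0.242), with replicate 1 far above replicate 2 in each fraction. Gadd45g passed without RPF replicate 2 (1.66) and without total RNA replicate 1 (2.0), and was at -0.19 without RPF replicate 1.

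A list drawn up for TET-binding proteins and cofactor supply held 4 higher and 2 lower genes among 9 tested, with a median of 0.03. Over all tested genes 20.5% were higher and 21.2% lower. With library size only the balance turned to 2 higher and 4 lower, DESeq2 called 0 lower (edgeR 2), the coding share correction gave 1 lower, and without total RNA replicate 2 there was 1 higher gene. Idh1, Idh2 and Idh3a, isocitrate dehydrogenases, were among the higher ones. Vdac1, a mitochondrial channel gene, was highest (1.01 ± 0.20, adjusted p = 0.00692, edgeR; adjusted p = 0.0503 without total RNA replicate 2), and the RNA-binding protein gene Lin28a lowest (-1.38 ± 0.37, adjusted p = 0.0227). The Lin28a call was lost under DESeq2 (adjusted p = 0.0852) and when coding share was corrected for, and its ratio was -0.77 without total RNA replicate 1.

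In the methyl donor cycle 3 of 7 tested members were higher and 2 lower, beside 20.5% and 21.2% of all tested genes. Their median was 0.15. The higher ones were 1 with library size only and without total RNA replicate 1, and 0 without total RNA replicate 2. Ahcy, which hydrolyses S-adenosylhomocysteine, was highest (1.1 ± 0.24, adjusted p = 0.011, edgeR) and Amd1, which decarboxylates S-adenosylmethionine, lowest (-2.03 ± 0.17, adjusted p = 0.000559). Their coding 28-base stretches recur in other genes at 98.7% for Ahcy and 100% for Amd1, so both are uncertain, and the Ahcy call was lost when total RNA replicate 2 was left out (adjusted p = 0.0601).

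Of the NuRD partners of MBD3, 7 of 12 were higher and 1 was lower, beside 20.5% and 21.2% of all tested genes. Their median was 0.61, beside -0.19 for Mbd3 itself. Without total RNA replicate 2, 2 were higher, and with library size only 3 were higher and 3 lower. Hdac1, a deacetylase, was highest (1.41 ± 0.19, adjusted p = 0.00208, edgeR) and Cdk2ap1 lowest (-1.52 ± 0.24, adjusted p = 0.00336). Shared stretches make up 90% of the coding part of Hdac1 and 100% of that of Cdk2ap1.

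Germline genes that promoter methylation is known to hold silent were low, with a median of 11.1 CPM in RPF and 7.23 CPM in total RNA. Of 11 tested members 4 were higher and 0 lower, beside 20.5% and 21.2% of all tested genes, with a median of 0.60. Among the higher ones, Tex101 had 17 and 26 counts in RPF, against 6 and 9 counts in total RNA. It passed the filter, with its minimum count of 10, through the RPF libraries alone. There were 2 higher genes at a mean of at least 10 CPM and 1 without total RNA replicate 1, and library size only gave 1 higher and 1 lower. Taf7l stood highest among those at 10 CPM or more (1.46 ± 0.25, adjusted p = 0.00414, edgeR). Dazl, an RNA-binding protein gene of germ cells, was lowest there at 0.02 ± 0.35 (adjusted p = 0.975), with 23.3 and 42.4 CPM in RPF, against 23.7 and 41.2 CPM in total RNA. Replicate 1 of Dazl was thus below replicate 2 in both fractions.

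**Figure D5:**
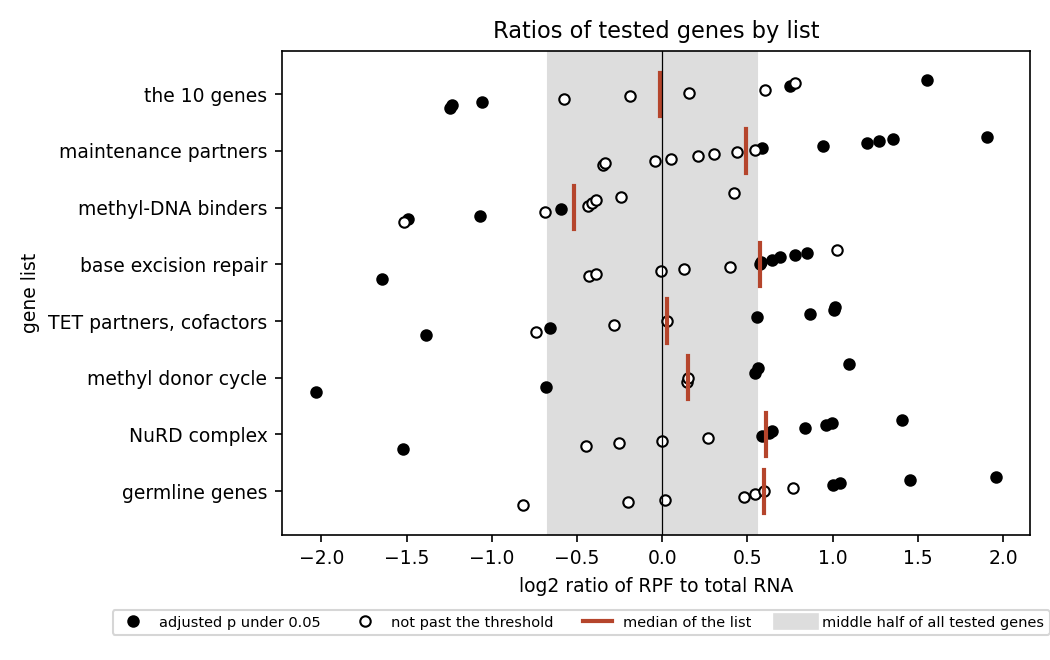
Log2 ratio, RPF over total RNA (x axis), of every tested gene in the 8 lists (y axis), with filled points for an adjusted p under 0.05, red bars for the list medians and a grey band for the interquartile range of all tested genes. The NuRD, germline and base excision medians lie at 0.61, 0.60 and 0.57, and the median of methyl-DNA binders at -0.52.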

How the data were processed

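The authors deposited raw read counts per gene for each library, ending in HTSeq-style tally rows. The submitters' processing notes name the build mm9, HTSeq 0.11.2, edgeR 3.26.8, TopHat2 2.1.1 and Bowtie 1.2.3, without their roles. Per the labels, reads were 50 bases long and each RPF library was sequenced in 4 runs. The sources used here state neither the annotation nor the counted feature nor the strand setting. Tally rows were left out. Reads in no gene were 5.95% and 6.66% of tallied alignments in RPF, against 23.4% and 26.2% in total RNA. Reads tallied as ambiguous were 4.96% and 8.58% in RPF, against 0.755% and 0.719% in total RNA. The part of these in the ratios of overlapping genes was not tested. Symbols, chromosomes, lengths and sequences came from GENCODE M21 (GRCm38) by identifier without version, which named 87.4% of identifiers; no coordinates are printed, since the builds differ.

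Counts were fitted in edgeR 4.0.16 (R 4.3.3, limma 3.58.1) by fraction alone, on 13809 genes kept by filterByExpr (minimum count 10, minimum total 15), with TMM factors, two-sided quasi-likelihood tests and Benjamini-Hochberg adjustment over all genes. The SE is the log2 ratio over the square root of F. Sharing was counted over 28-base stretches of annotated transcripts on either strand. Replicate differences used a pseudocount of 0.5 CPM for the genome-wide shares. DESeq2 1.42.0, limma-voom and other settings are given in the closing section. Named genes are the 10 members, Eif4a3, the highest and lowest gene of each list at 10 CPM or more and the 3 nearest profiles of the extreme members. Idh1, Idh2, Idh3a, Dcn, Tfap2c and Tex101 were named after their values were seen. The members and lists were chosen with earlier results of these data known.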

Additional observations from a re-analysis of the deposited data

How the results depend on the processing

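Of 13 alternatives, limma-voom, DESeq2 with its own test, DESeq2 size factors, coding genes only, a minimum mean of 10 CPM and no filter left the counts of genes, members and listed genes within 1.5 times those reported. Library size only gave 1223 higher and 4961 lower genes, 1 higher and 5 lower members, and 10 higher and 22 lower listed genes. The correction for coding share left 1 member higher. Leaving out each library in turn gave 1634 to 3123 higher and 1861 to 3310 lower genes, 1 to 4 higher and 3 to 4 lower members, and 12 to 31 higher and 6 to 12 lower listed genes; in these fits the lone library of a fraction is assumed to vary like the others. With replicate number as a block there were 4257 higher and 4365 lower genes, and 40 higher and 21 lower listed genes. Members came to 4 higher (Uhrf1 at 0.78 and Dnmt3b at 0.59 among them) and 4 lower. Tdg passed as lower there too (-0.57). The block was not used in the report, because the labels do not say what a replicate number marks; replicate differences of the fractions correlated across genes (Pearson's r = 0.44, Spearman's rho = 0.47), a hint from the data only. Among single gene ratios, 8 values lost and 21 gained a call, and 0 called ratios reversed. Of the 10 members Tet3 had the fewest counts, 39 to 147.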
